A study of Homo sapiens with 6 samples.

Results

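The facilitative glucose transporters of the SLC2A family were followed probe set by probe set on arrays of samples labelled HCT116, which is a line of human colorectal carcinoma cells. The family members described are SLC2A1, SLC2A2, SLC2A3, SLC2A4, SLC2A5, SLC2A6, SLC2A8, SLC2A10, SLC2A12 and SLC2A13, 10 genes in all. They were chosen by name with the CSF3 minus Ctrl differences of these arrays already known, so these differences are given as a description and no p-value is attached to a transporter. All probe sets that the platform annotation gives to 1 of these genes alone were used, 33 of 44988, and they cover 9 of the 10 genes, among 18132 genes that the array measures in this way. SLC2A3 has none, because its 5 probe sets are annotated to SLC2A14 as well.

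Biotin-labelled total RNA was measured on 6 Affymetrix arrays, 3 from cells labelled CSF3 and 3 from cells labelled control (Ctrl), all grown in the same serum-containing medium. CSF3 is granulocyte colony-stimulating factor, a cytokine of neutrophil production, and the labels do not say whether it was added as protein or expressed in the cells, at what dose or for how long. The labels also do not say that the 3 samples of a group were separate cultures, so errors and p-values cover only how these samples differ among themselves, possibly for technical reasons. The brightest CSF3 probe set read 5.96 ± 0.04 on the CSF3 arrays and 4.83 ± 0.30 on the Ctrl arrays (log2 signal, SD, n = 3 each).

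Several defining markers of colon epithelium were dim on these arrays. Of 10 such markers, 7 lay below the median level of all probe sets on their brightest probe set. At a limma adjusted p under 0.05, 6 of the 10 were called higher on the CSF3 arrays and 2 lower, against 44.1% and 26.5% of all genes. EPCAM, an epithelial adhesion molecule, read 3.30 on the CSF3 arrays and 3.63 on the Ctrl arrays, CDH1 (E-cadherin) 2.24 and 2.20, and VIL1 (villin) 1.70 and 1.43. CDX2, another of the 10, lay above the median level, at 4.79 and 4.45. The keratin gene KRT18 read 7.48 on the CSF3 arrays and 7.26 on the Ctrl arrays and was called higher on the CSF3 arrays. Its partner KRT8 read 5.06 on the CSF3 arrays and 6.37 on the Ctrl arrays and was called lower on the CSF3 arrays. All 6 fibroblast markers, 4 of 5 leukocyte markers, all 4 hepatocyte markers and 3 of 4 skeletal muscle markers were also below the median level, while only 1 of 4 endothelial markers was. The summed linear signal of the fibroblast markers was 48.4 to 53.3 on the CSF3 arrays and 35.4 to 36.9 on the Ctrl arrays, and that of the 4 endothelial markers 63.4 to 65.1 and 41.1 to 43.8. The hepatocyte (27.4 to 30.2 and 22.4 to 22.7) and skeletal muscle sums (57.6 to 60.5 and 49.8 to 53.2) were also higher on the CSF3 arrays. The leukocyte (907.9 to 952.8 and 1110.7 to 1161.4) and colon sums (293.84 to 306.75 and 306.81 to 312.94) were lower there. The leukocyte sum mostly reads CD68, at 9.82 on the CSF3 arrays and 10.11 on the Ctrl arrays (log2), the only leukocyte marker called lower. CD3E and LYZ were called higher, by 0.48 and 0.29, and PTPRC and CD14 had positive differences that were not called. The part of these markers' cells in the results below was not tested. The label HCT116 is used here only as the samples' label.

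SLC2A proteins span the membrane many times, and most of them carry hexoses and related molecules down their concentration gradient, without an energy source of their own. They fall into classes by sequence: class I holds the classical glucose transporters, class II the fructose transporter and its relatives, and class III more distant members, several of which sit on membranes inside the cell. Colorectal tumours are known for high glucose uptake, which is usually ascribed to SLC2A1, the transporter of basal uptake in most tissues.

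The arrays differed between the groups in ways that touch every value below. Pearson's r over all probe sets was 0.994 to 0.995 among CSF3 arrays, 0.998 among Ctrl arrays and 0.970 to 0.974 between the groups. The spread of values was narrower on the CSF3 arrays, with a lower quartile of 2.40 to 2.43 there against 2.18 to 2.19 on the Ctrl arrays, and an upper quartile of 5.37 to 5.40 against 5.63. The gap between the 3' and 5' probe sets of GAPDH, a sign of RNA integrity and of labelling, was 0.682 ± 0.003 on the CSF3 arrays and 0.306 ± 0.007 on the Ctrl arrays (log2, SD, n = 3 each). The same gap for ACTB was 1.94 ± 0.02 on the CSF3 arrays and 1.34 ± 0.03 on the Ctrl arrays. The median of the 18 hybridisation control probe sets, which read RNA spiked in and not the cells' own, was 8.36 ± 0.05 on the CSF3 arrays and 6.82 ± 0.07 on the Ctrl arrays. The part of these gaps in the differences of the transporters was not tested. Without detection calls, a dim probe set cannot be told from one whose gene is off. In bulk RNA, fewer cells with a transcript and less transcript per cell cannot be told apart.

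Across the 33 transporter probe sets, differences ran both ways and only 1 exceeded 1 on the log2 scale. At a limma adjusted p under 0.05 over all 44988 probe sets, 16 transporter probe sets were higher on the CSF3 arrays and 9 lower, and 8 were not called, against 36.7% of all probe sets higher and 28.8% lower. The values of the 3 CSF3 arrays lay wholly above those of the 3 Ctrl arrays for 17 transporter probe sets and wholly below them for 9, against 39.8% and 30.9% of all probe sets. Since these differences were known when the genes were chosen, nothing is read from these counts. The count of higher transporter probe sets was 10 without Ctrl replicate 1 and 10 without Ctrl replicate 2. Over all 44988 probe sets it was 13269 and 13455 in those fits, against 16513 with all arrays. The median difference of the 33 probe sets was 0.21 as deposited and -0.0025 after quantile normalization of the arrays, against 0.10 and 0.04 for all probe sets.

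**Figure D1:**
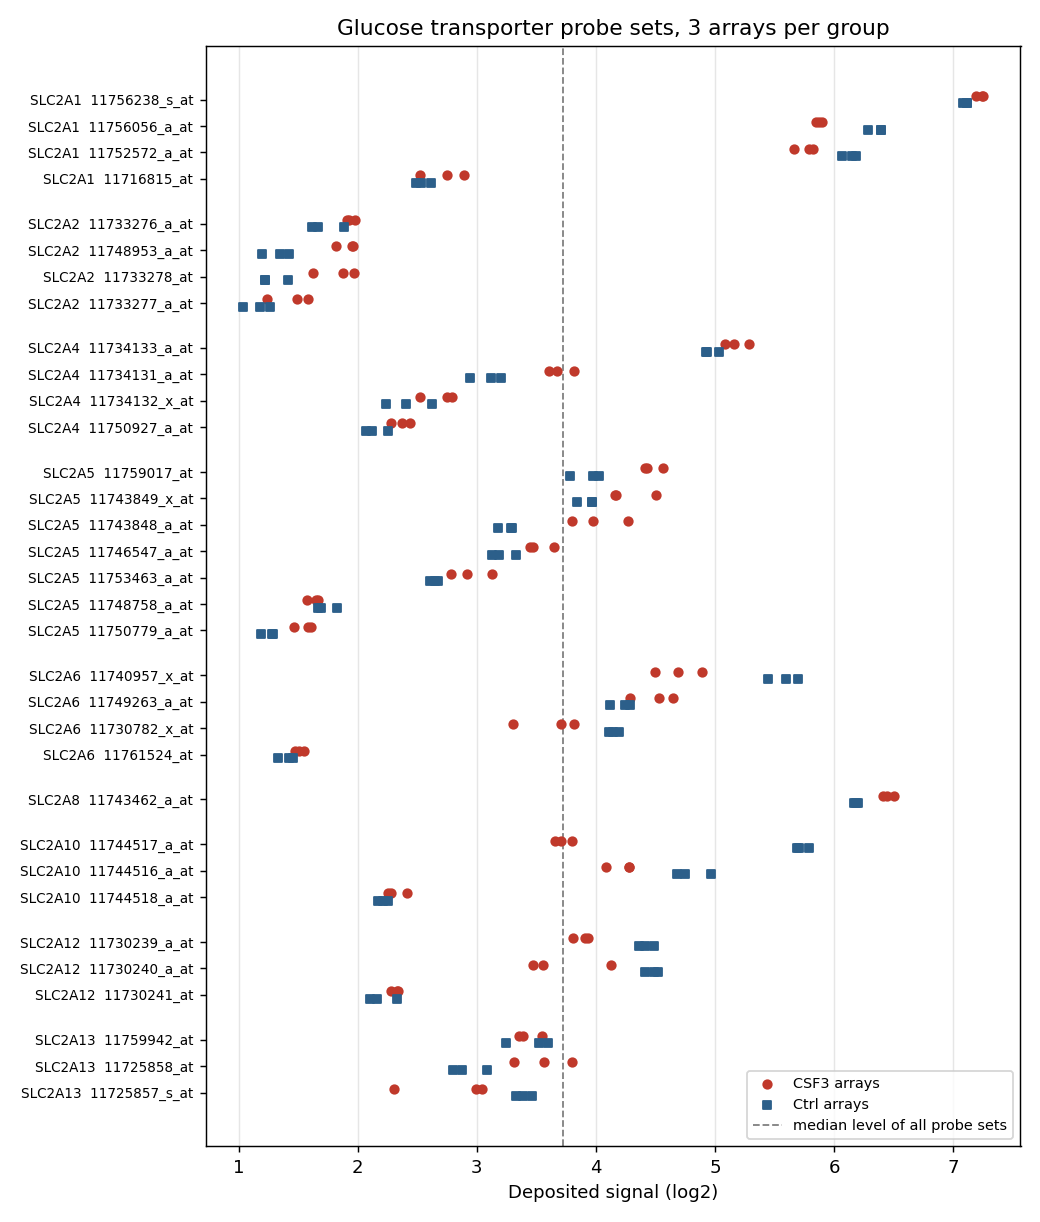
Deposited log2 signal (horizontal axis) of the 33 single-gene probe sets of 9 transporter genes, 1 row each, on the 3 CSF3 arrays (red circles) and the 3 Ctrl arrays (blue squares), with a dashed line at the median level of all probe sets, 3.72. In 26 of the 33 rows the groups do not overlap, while 39.8% of all probe sets were wholly higher and 30.9% wholly lower. The widest gap is that of SLC2A10 probe set 11744517_a_at, where the CSF3 arrays read 3.66 to 3.80 and the Ctrl arrays 5.68 to 5.79.

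SLC2A10 encodes GLUT10, a class III transporter whose loss causes arterial tortuosity syndrome and which has been linked to the transport of dehydroascorbic acid. Its brightest probe set, 11744517_a_at, read 3.66, 3.71 and 3.80 on the CSF3 arrays, against 5.79, 5.71 and 5.68 on the Ctrl arrays. The groups are far apart on it, with a difference of -2.01 ± 0.06 (log2, limma SE), so that the CSF3 signal was 0.249 times the Ctrl signal. This was the 23rd lowest difference among all 44988 probe sets and the 4th lowest among the brightest probe sets of 18132 genes. Leaving out single arrays moved it between -2.04 and -1.97, and quantile normalization gave -1.89.

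The second probe set of the gene, 11744516_a_at, read 4.27, 4.27 and 4.08 on the CSF3 arrays, against 4.97, 4.68 and 4.74 on the Ctrl arrays, and differed by -0.59 ± 0.09. The groups did not overlap there either, with a gap smaller than on the first. On the third, 11744518_a_at, which was dim in both groups, the CSF3 arrays read 2.41, 2.28 and 2.26 and the Ctrl arrays 2.26, 2.21 and 2.17, so the groups overlapped (difference 0.11 ± 0.07). The 3 probe sets of SLC2A10 thus spanned a range of 2.11 on the log2 scale. A range at least as wide was found in 50 of the 11734 genes with more than 1 probe set, or 0.426% of them, where the median range was 0.40. Which part of the transcript each probe set reads was not used here.

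The genes whose brightest probe set had the profile nearest to that of SLC2A10 over the 6 arrays were TRIM2, ZKSCAN1 and CFAP263. The measure was the root mean square difference of the log2 values after each profile was centred on its own mean, and it came to 0.087 for TRIM2, 0.088 for ZKSCAN1 and 0.098 for CFAP263. Their differences were -1.88 ± 0.07, -1.94 ± 0.06 and -2.14 ± 0.08 on the log2 scale, which the choice by profile fixed, so no p-value is given. TRIM2 is a ubiquitin ligase gene, ZKSCAN1 a zinc finger gene and CFAP263 a gene of cilia.

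The promoters of SLC2A10, SLC2A12 and SLC2A5 are shown because SLC2A10 and SLC2A12 read lower on both of their brighter probe sets and SLC2A5 higher on 6 of 7. They are RefSeq sequences of GRCh38.p14, 250 bases before to 50 after the annotated start, written 5′ to 3′ on the gene's strand, at chr20:46709399-46709698 (+), chr6:134052575-134052874 (-) and chr1:9069586-9069885 (-). Capitals mark matches on either strand to the hypoxia response core ACGTG, the E-box CACGTG that contains it, the GC box GGGCGG, the TATA box TATAAA, the STAT site TTCNNNGAA and the κB consensus.
SLC2A10: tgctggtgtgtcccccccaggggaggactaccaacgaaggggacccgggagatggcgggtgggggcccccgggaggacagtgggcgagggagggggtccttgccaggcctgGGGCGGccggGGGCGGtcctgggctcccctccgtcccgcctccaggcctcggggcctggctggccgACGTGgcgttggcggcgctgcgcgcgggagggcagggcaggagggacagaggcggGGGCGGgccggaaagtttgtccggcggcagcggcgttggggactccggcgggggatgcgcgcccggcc
SLC2A12: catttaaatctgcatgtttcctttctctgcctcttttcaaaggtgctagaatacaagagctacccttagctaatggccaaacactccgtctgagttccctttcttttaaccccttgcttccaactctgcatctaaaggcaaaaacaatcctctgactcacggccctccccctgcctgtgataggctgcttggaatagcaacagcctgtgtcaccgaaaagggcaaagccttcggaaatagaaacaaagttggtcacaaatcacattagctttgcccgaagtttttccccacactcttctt
SLC2A5: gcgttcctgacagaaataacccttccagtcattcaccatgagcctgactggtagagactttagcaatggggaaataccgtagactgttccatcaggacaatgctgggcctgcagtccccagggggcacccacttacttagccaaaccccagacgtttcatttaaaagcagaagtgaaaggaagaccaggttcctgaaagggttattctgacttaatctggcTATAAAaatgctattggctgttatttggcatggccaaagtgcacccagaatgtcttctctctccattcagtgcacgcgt

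The SLC2A10 window holds 3 matches to the GC box and 1 to ACGTG, and its GC content is 78.0%, against 45.7% for SLC2A12, which has no match, and 47.7% for SLC2A5, which has 1 TATA box. Promoters were found for 8 of the 10 genes, not for SLC2A3 and SLC2A4. Of these 8, 5 hold a GC box (44.95% of all 35116 promoters do), 2 hold ACGTG (21.4% of all), 1 the E-box (7.26%) and 2 a TATA box (11.5%). The STAT site and the κB consensus were in 0 of the 8, against 7.66% and 5.91% of all promoters. These are matches of letters in a short window, and the arrays measure neither binding nor promoter use.

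SLC2A12 encodes GLUT12, another class III transporter, first found in a breast cancer line. Its probe set 11730239_a_at read 3.81, 3.93 and 3.91 on the CSF3 arrays, against 4.49, 4.41 and 4.37 on the Ctrl arrays, a difference of -0.54 ± 0.06. Probe set 11730240_a_at read 4.12, 3.47 and 3.56 on the CSF3 arrays, against 4.52, 4.41 and 4.49 on the Ctrl arrays, a difference of -0.76 ± 0.16. On both, all CSF3 arrays were below all Ctrl arrays, and CSF3 replicate 1 stood nearest to the Ctrl group on the second. Without that array the second difference was -0.96. The dim probe set 11730241_at overlapped between the groups (0.12 ± 0.07).

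SLC2A6 encodes GLUT6, a class III protein of lysosomal and other internal membranes. Its probe sets went in opposite directions. Probe set 11740957_x_at read 4.89, 4.69 and 4.50 on the CSF3 arrays, against 5.70, 5.44 and 5.59 on the Ctrl arrays, a difference of -0.88 ± 0.11. Probe set 11730782_x_at read 3.81, 3.70 and 3.31 on the CSF3 arrays, against 4.20, 4.14 and 4.11 on the Ctrl arrays, a difference of -0.54 ± 0.13. These 2 have the suffix x, which marks probe sets that may hybridise with other transcripts, and both had CSF3 values below every Ctrl value. Probe set 11749263_a_at went the other way, with 4.29, 4.53 and 4.64 on the CSF3 arrays, against 4.24, 4.12 and 4.28 on the Ctrl arrays (0.27 ± 0.10). The lowest CSF3 value there lay just above the highest Ctrl value. The dim probe set 11761524_at had a difference of 0.11 ± 0.06 that was not called.

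SLC2A13 encodes HMIT, which carries myo-inositol together with protons. Its 3 probe sets had means over the arrays of 3.09 to 3.44, below the median level of all probe sets, 3.72. Probe set 11725858_at read 3.32, 3.56 and 3.80 on the CSF3 arrays, against 2.80, 2.88 and 3.09 on the Ctrl arrays, a difference of 0.64 ± 0.13. Probe set 11725857_s_at read 2.30, 3.05 and 3.00 on the CSF3 arrays, against 3.38, 3.46 and 3.33 on the Ctrl arrays, a difference of -0.61 ± 0.18. The first was higher and the second lower on every CSF3 array, so these probe sets gave SLC2A13 no single direction. CSF3 replicate 1 stood apart on the second, whose difference was -0.37 without it. On the brightest probe set, 11759942_at, the groups overlapped (-0.03 ± 0.10).

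SLC2A8 encodes GLUT8, which is held inside the cell by a dileucine signal. It had 1 probe set, 11743462_a_at, with 6.45, 6.51 and 6.41 on the CSF3 arrays, against 6.20, 6.18 and 6.17 on the Ctrl arrays. Every CSF3 value was above every Ctrl value, and the difference of 0.27 ± 0.06 became 0.52 after quantile normalization. Over the 5 class III genes, 3 of 14 probe sets were called higher and 7 lower, or 3 and 7 after quantile normalization, and the median difference was -0.28 as deposited and -0.29 after it. Of all probe sets above the median level 25.2% were called higher and 47.0% lower, and of those below it 48.2% and 10.6%. After quantile normalization 12597 of all 44988 probe sets were called higher and 11292 lower. Nothing is read from the class III counts, since the genes were chosen with these differences known.

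**Figure D2:**
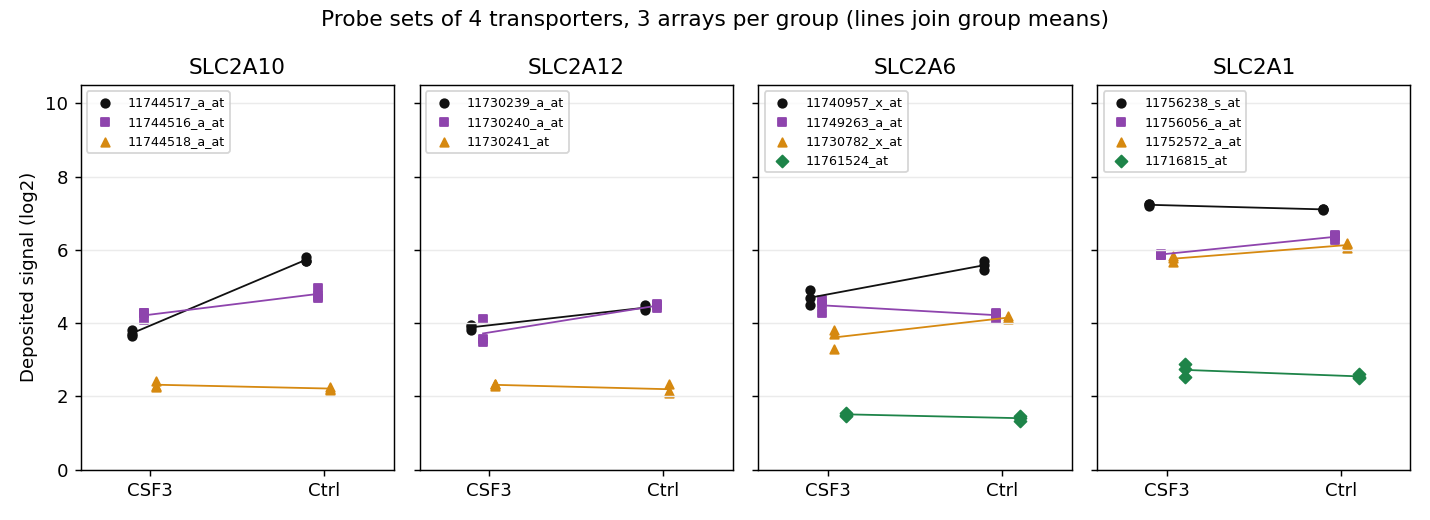
Deposited log2 signal (vertical axis) of each probe set of SLC2A10, SLC2A12, SLC2A6 and SLC2A1 on the CSF3 (left) and Ctrl (right) arrays, with points for single arrays and lines between group means. For SLC2A10 the line of 11744517_a_at runs between 3.72 on the CSF3 and 5.73 on the Ctrl arrays while that of 11744518_a_at is nearly level, and SLC2A6 and SLC2A1 each have lines that slope in opposite directions.

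SLC2A1 encodes GLUT1, the transporter of basal glucose uptake and a known target of hypoxia signalling. Its 4 probe sets did not move together. The brightest, 11756238_s_at, read 7.19, 7.25 and 7.24 on the CSF3 arrays, against 7.08, 7.12 and 7.12 on the Ctrl arrays, a difference of 0.13 ± 0.05 that was not called. The groups did not overlap, and after quantile normalization the difference was 0.34. Probe set 11756056_a_at read 5.85, 5.90 and 5.87 on the CSF3 arrays, against 6.39, 6.28 and 6.39 on the Ctrl arrays, a difference of -0.48 ± 0.06. Probe set 11752572_a_at read 5.82, 5.79 and 5.66 on the CSF3 arrays, against 6.18, 6.06 and 6.15 on the Ctrl arrays, a difference of -0.37 ± 0.07. Both were lower on every CSF3 array, and quantile normalization brought them to -0.22 and -0.11, the second no longer called. The dim probe set 11716815_at overlapped between the groups, at 0.18 ± 0.10. The probe sets thus gave SLC2A1 no single direction.

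SLC2A2 encodes GLUT2, the low-affinity transporter of liver and of insulin-secreting cells. All 4 of its probe sets were dim, with means over the 6 arrays of 1.30 to 1.83, and all 4 differences were positive, between 0.22 and 0.59. The largest was that of 11748953_a_at, with 1.82, 1.96 and 1.95 on the CSF3 arrays, against 1.42, 1.35 and 1.20 on the Ctrl arrays. The groups did not overlap there, and the difference was 0.59 ± 0.08. After quantile normalization the 4 differences ran between -0.0025 and 0.40.

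SLC2A4 encodes GLUT4, the insulin-responsive transporter of muscle and fat, and all 4 of its probe sets also read higher on average on the CSF3 arrays. The brightest, 11734133_a_at, read 5.08, 5.16 and 5.28 on the CSF3 arrays, against 4.93, 4.93 and 5.03 on the Ctrl arrays, a difference of 0.21 ± 0.07. Probe set 11734131_a_at read 3.61, 3.81 and 3.68 on the CSF3 arrays, against 3.12, 2.94 and 3.20 on the Ctrl arrays, a difference of 0.61 ± 0.09. The groups did not overlap on these 2 probe sets, which gave 0.42 and 0.54 after quantile normalization. The other two had differences of 0.27 and 0.21, and 0.06 and -0.02 after it.

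SLC2A5 encodes GLUT5, the fructose transporter of the small intestine and the only class II gene described. Of its 7 probe sets 6 were called higher, with differences of 0.30 to 0.76, and 1 dim probe set differed by -0.10 ± 0.07. Probe set 11743848_a_at had the largest difference, with 3.80, 4.27 and 3.97 on the CSF3 arrays, against 3.29, 3.30 and 3.18 on the Ctrl arrays (0.76 ± 0.12). The brightest, 11759017_at, read 4.41, 4.56 and 4.43 on the CSF3 arrays, against 3.98, 4.02 and 3.79 on the Ctrl arrays (0.54 ± 0.08). Neither pair of groups overlapped, and both differences held after quantile normalization, at 0.74 and 0.62. Of the 7 probe sets, 3 were called higher and 1 lower after it, against 12597 and 11292 of all 44988 probe sets. Nothing is read from these counts.

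**Figure D3:**
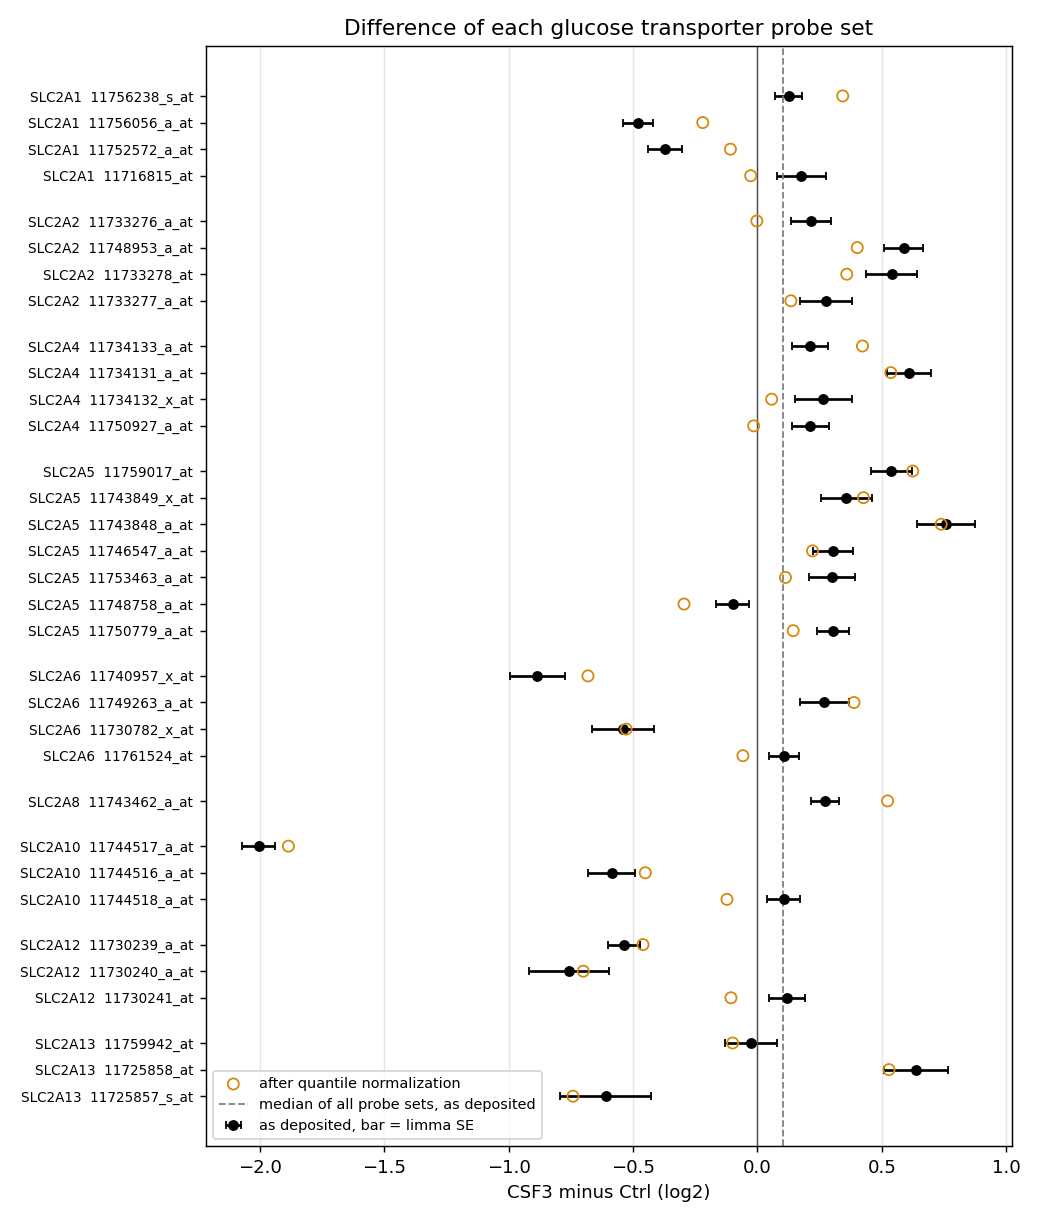
CSF3 minus Ctrl difference (log2, horizontal axis) of each transporter probe set as deposited (black points, bars are limma standard errors) and after quantile normalization (open circles), with the median of all probe sets, 0.10, as a dashed line. SLC2A10 probe set 11744517_a_at lies at -2.01 and no other transporter probe set lies beyond 1 in either direction.

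Among the 8 transporter genes with more than 1 probe set, 2, SLC2A6 and SLC2A13, had probe sets called in both directions, against 14.5% of the 11734 genes with several probe sets. The range of differences within a gene was 0.37 for SLC2A2, 0.40 for SLC2A4, 0.66 for SLC2A1, 0.86 for SLC2A5, 0.88 for SLC2A12, 1.15 for SLC2A6 and 1.25 for SLC2A13, and the median over the 8 genes was 0.87.

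Differences on these arrays moved with the level of a probe set, and the transporters shared in this. Of the 19 transporter probe sets below the median level of all probe sets, 16 had positive differences, against 79.0% of all probe sets below that level. Of the 14 above it, 6 had positive differences, against 38.7% of all probe sets above it. After quantile normalization 10 of the 19 and 6 of the 14 were positive. Of all probe sets, 13031 of 22494 below the median level and 11671 of 22494 above it were then positive. When all probe sets were sorted into 20 bins by level, 26 of the 33 transporter probe sets lay between the 10th and 90th percentile of the differences in their bin. The 3 below that band were 11744517_a_at of SLC2A10, 11748758_a_at of SLC2A5 and 11725857_s_at of SLC2A13. The 4 above it were 2 probe sets of SLC2A2, 11743848_a_at of SLC2A5 and 11725858_at of SLC2A13. The SLC2A10 value of -2.01 stood against a median of -0.09 and a 10th percentile of -0.98 in its bin.

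**Figure D4:**
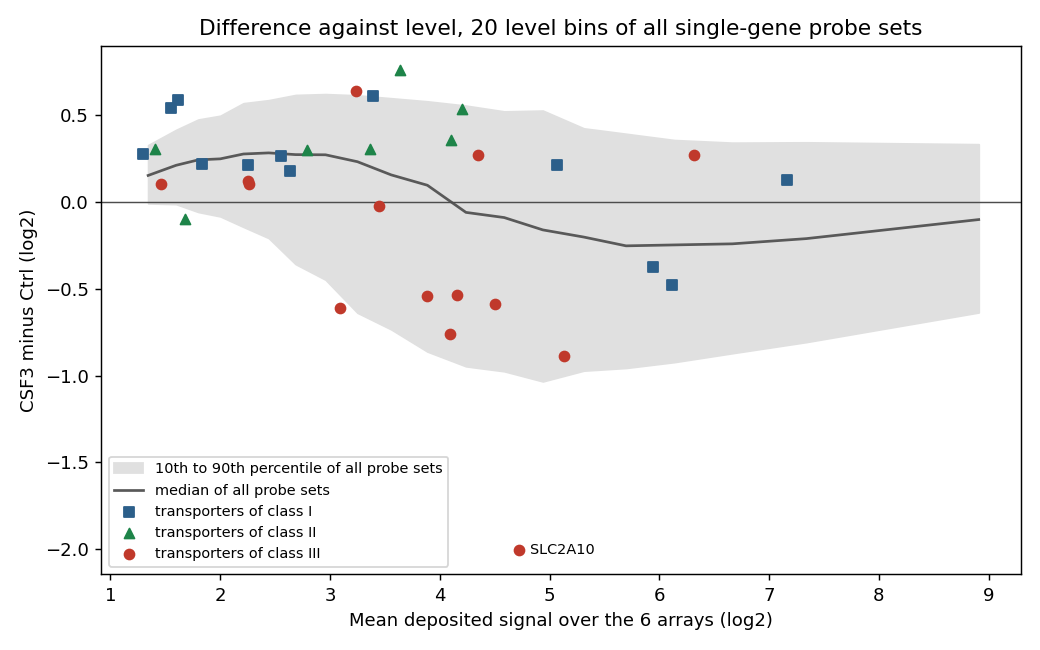
CSF3 minus Ctrl difference (log2, vertical axis) against the mean signal over the 6 arrays (log2, horizontal axis), with the median (line) and the 10th to 90th percentile (grey band) of all single-gene probe sets in 20 level bins and the 33 transporter probe sets as points by class. The line lies above 0 among dim probe sets and below 0 among bright ones, and 26 of the 33 points lie inside the band.

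The other 4 genes of the family read higher on the CSF3 arrays on their brightest probe sets. On that footing, 44.1% of all 18132 genes were called higher and 26.5% lower, and the median difference of all genes was 0.16. SLC2A14, a close relative of SLC2A3, rose by 0.88 ± 0.07 on its 1 own probe set (limma adjusted p = 4.81e-05). That probe set read 4.96 ± 0.08 on the CSF3 arrays and 4.08 ± 0.07 on the Ctrl arrays (SD, n = 3 each). SLC2A11, of class II, rose by 0.72 ± 0.09 (limma adjusted p = 0.000407), while its other 5 probe sets ran between -0.40 and 0.70. SLC2A9, a urate transporter gene, and SLC2A7 rose by 0.52 ± 0.11 and 0.49 ± 0.11 (limma adjusted p = 0.00485 and 0.00515), and the SLC2A9 call was lost after quantile normalization (0.30, limma adjusted p = 0.0563).

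Genes that handle glucose around the transporters were read on their brightest probe sets, most of which lay in the range of levels where differences tended to be negative. Of 102 measured genes in 5 lists, 23 rose and 50 fell, or 29 and 33 after quantile normalization. The median difference was -0.17 as deposited and 0.01 after it, against 0.16 and 0.13 for all genes. Of the 84 genes above the median level of all probe sets, 14.3% rose and 56.0% fell, against 30.4% and 41.7% of all 10785 genes above it. After quantile normalization 23 of the 84 were called higher and 30 lower. Nothing particular to these lists is read from the counts. All these lists were drawn up with earlier results of these arrays known.

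The list on traffic and surface stability of transporters, the longest of the 5, had the most falls. Of its 29 measured genes 21 fell and 2 rose, or 15 and 6 after quantile normalization, with a median of -0.34 as deposited and -0.17 after it. The 28 genes above the median level of all probe sets fell in 71.4% of cases, against 41.7% of all 10785 genes above it. After quantile normalization 14 of the 28 were called lower, against 2973 of the 10785. Nothing particular to this list is read from these counts. TBC1D4, the AKT substrate that holds GLUT4 vesicles inside the cell, fell by 0.99 ± 0.05, with 4.72 ± 0.03 on the CSF3 arrays and 5.71 ± 0.03 on the Ctrl arrays (limma adjusted p = 1.31e-05), and its other probe set had a difference of -0.17. RALGAPB, a subunit of the complex that restrains the small GTPase RALA, fell by 1.39 ± 0.07, and RALA itself fell by 0.78 ± 0.05. RHOQ, the GTPase TC10 of insulin-stimulated transport, fell by 0.93 ± 0.06, and its other probe sets had differences of -1.92 to -0.35. Each of these 4 had a limma adjusted p of at most 2.79e-05. The other probe sets of RALGAPB (0.02 to 0.13) and RALA (0.21 to 0.53) did not share the fall, and the mean of all RALA probe sets gave -0.01 (limma adjusted p = 0.775). TXNIP, the arrestin that takes SLC2A1 and SLC2A4 protein off the surface, read 8.76 ± 0.03 on the CSF3 arrays and 8.83 ± 0.02 on the Ctrl arrays and was not called (-0.07 ± 0.05, limma adjusted p = 0.302). Its other probe sets had differences of -0.31 to -0.06, and the mean of all 5 probe sets fell by 0.15 (limma adjusted p = 0.0157).

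In the list on hexose phosphorylation 6 of 18 measured genes rose and 9 fell, or 6 and 5 after quantile normalization, with a median of -0.12 as deposited and 0.11 after it. Phosphorylation traps hexoses in the cell once a transporter has let them in. HKDC1, a hexokinase-like gene, rose by 1.01 ± 0.10, and its other probe sets had differences of 0.35 to 0.53. PGM1, which links glucose 6-phosphate to glycogen, fell by 1.45 ± 0.07, and GALK2, a kinase for N-acetylgalactosamine, fell by 0.93 ± 0.09. PFKFB2, which sets the level of fructose 2,6-bisphosphate, fell by 1.17 ± 0.12 on its brightest probe set, while the mean of all its probe sets gave -0.04 (limma adjusted p = 0.663). The limma adjusted p of these 4 genes was at most 0.000162. Of the main hexokinase genes, HK2 fell by 0.44 ± 0.06 (limma adjusted p = 0.000776) and HK1 fell by 0.26 ± 0.05 (limma adjusted p = 0.00454).

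Among 15 sodium-coupled and other sugar carriers 7 rose and 5 fell, or 7 and 4 after quantile normalization, with a median of 0.24 as deposited and 0.16 after it. SLC5A3, the sodium-coupled myo-inositol transporter, fell by 1.24 ± 0.06, with 5.81 ± 0.04 on the CSF3 arrays and 7.05 ± 0.02 on the Ctrl arrays. SLC37A4, the glucose 6-phosphate carrier of the endoplasmic reticulum, fell by 0.59 ± 0.06, and SLC50A1, a sugar carrier of another fold, fell by 0.59 ± 0.06. SLC5A10, a mannose and fructose carrier gene, rose by 0.62 ± 0.06. Each of these 4 had a limma adjusted p of at most 0.000132. SLC5A1, which encodes the intestinal sodium-glucose cotransporter, rose by 0.41 ± 0.08 at a low level, with 3.47 ± 0.10 on the CSF3 arrays and 3.06 ± 0.10 on the Ctrl arrays (limma adjusted p = 0.00283).

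Of 23 transcriptional regulators of transporter genes 6 rose and 8 fell, or 8 and 4 after quantile normalization, with a median of -0.01 as deposited and 0.05 after it. MEF2A, which acts on the SLC2A4 gene in muscle, fell by 1.16 ± 0.07, and KLF15, another activator of SLC2A4, fell by 0.88 ± 0.08. MEF2D rose by 0.80 ± 0.06, while its other probe sets ran between -0.32 and 0.66. MLXIP, a glucose-sensing partner of MLX, fell by 0.52 ± 0.08 on its brightest probe set, but the mean of its probe sets gave 0.021. Each of these 4 had a limma adjusted p of at most 0.000882. MYC, an activator of SLC2A1, fell by 0.35 ± 0.06 (limma adjusted p = 0.00135). HIF1A, the hypoxia factor that acts on SLC2A1, had a brightest probe set that was not called (-0.17 ± 0.07, limma adjusted p = 0.0583). It fell by 0.23 and was called without CSF3 replicate 1, and the mean of its probe sets fell by 0.44 (limma adjusted p = 8.52e-05).

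Of 20 listed genes of lactate export and pyruvate fate 17 were measured, without the lactate carrier genes SLC16A1 and SLC16A3. Of the 17, 2 rose and 7 fell, or 2 and 5 after quantile normalization. The median was -0.09 as deposited and 0.01 after it. Of the 12 genes above the median level of all probe sets 41.7% fell, against 41.7% of all genes above it. PDK1, the kinase that turns pyruvate dehydrogenase off, fell by 0.48 ± 0.07, and PDHB and DLAT of the dehydrogenase itself fell by 0.42 ± 0.06 and 0.47 ± 0.08. MPC1 of the mitochondrial pyruvate carrier fell by 0.31 ± 0.06, a call lost after quantile normalization (-0.07, limma adjusted p = 0.353). The limma adjusted p of these 4 genes was at most 0.00333 as deposited.

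**Figure D5:**
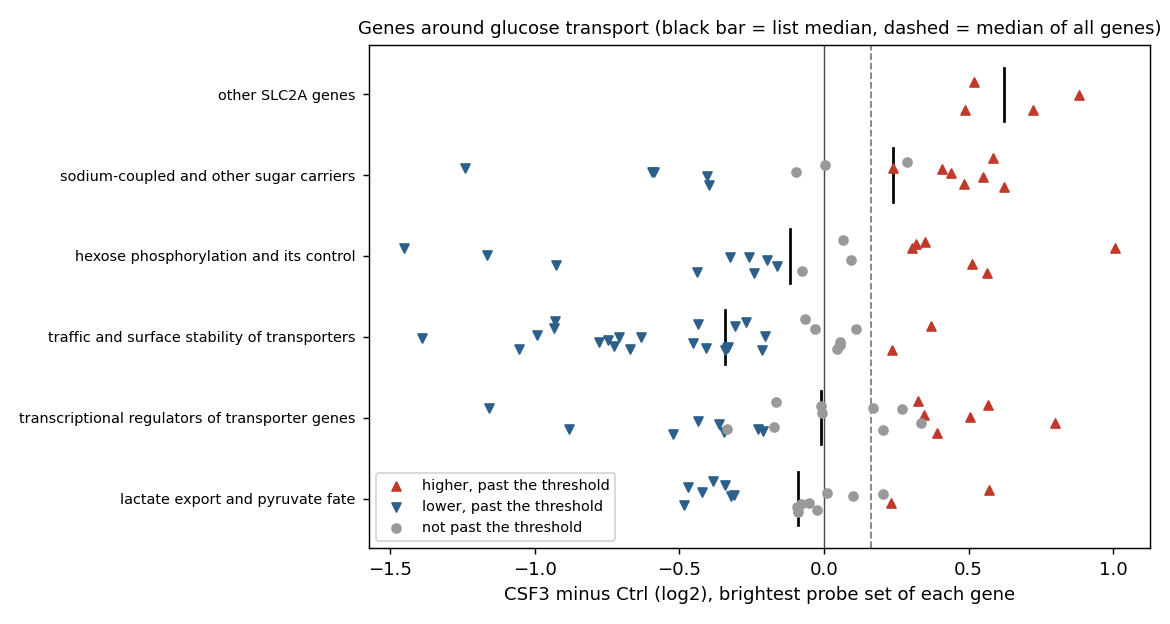
CSF3 minus Ctrl difference (log2, horizontal axis) of the brightest probe set of each gene in 6 lists (rows), with red triangles for genes called higher, blue triangles for genes called lower and grey circles for genes not called at a limma adjusted p under 0.05. Black bars are list medians and the dashed line is the median of all genes, 0.16. In the row on transporter traffic, the longest list, 21 of 29 genes are called lower, against 26.5% of all genes.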

How the data were processed

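The authors deposited 1 value per probe set and array, read here as log2 values from their range of 0.81 to 12.7; the logarithm's base, background correction and normalization are not stated in these sources. The platform annotation gave the gene names: of 49395 probe sets, 44988 have 1 gene, 1832 several, 2473 none and 102 are array controls, and only the first were fitted. CSF3 minus Ctrl was fitted on all 44988 in R 4.3.3 by lmFit and eBayes (limma 3.58.1), without covariates or filter, with Benjamini-Hochberg adjustment and a threshold of 0.05. A gene outside the family was read on its brightest probe set, that with the highest mean over the 6 arrays. Differences carry limma's standard error. The fit was checked on simulated data. The number of arrays limits the precision.

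The members and lists were chosen with earlier results of these data known. Named were all members, the 4 genes with the smallest p in each list, TXNIP, HIF1A, MYC, HK1, HK2 and SLC5A1, and the 3 genes nearest in profile to a member that differs by at least 1. Alternatives were quantile normalization, array medians taken off, omission of the dimmest 30% of probe sets, trend and robust moderation, array weights, a replicate block, 1 probe set per gene, leaving out probe sets ending in x or s, a minimum difference of 1, the mean of a gene's probe sets, and leaving out each array.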

Additional observations from a re-analysis of the deposited data

How the results depend on the processing

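Under quantile normalization 19 of the 33 transporter differences moved by more than the spread between replicates. In addition, 2 small called ones moved that far and changed sign, SLC2A2 probe set 11733276_a_at to -0.0025 and SLC2A4 probe set 11750927_a_at to -0.015. Among the 19, uncalled probe sets of SLC2A1 (11716815_at, to -0.03), SLC2A6 (11761524_at, to -0.06), SLC2A10 (11744518_a_at, to -0.12) and SLC2A12 (11730241_at, to -0.11) also changed sign. Positive differences numbered 22 as deposited and 16 after it. MLXIP reversed to 0.0212 with the mean of its probe sets. Moderation and the replicate block cannot change a difference in this balanced design, and taking off array medians shifts all differences alike. Leaving out 1 of 3 arrays moves a group mean by less than the spread of its values. That all 33 transporter differences moved by less than that spread under these settings and under weights was therefore largely fixed in advance. Higher transporter probe sets numbered 16 as reported, 10 with the dimmest 30% left out, 4 with 1 probe set per gene, 0 at a difference of at least 1, and 10 to 16 when arrays were left out. Lower ones numbered 9, then 3 with 1 probe set per gene and 1 at a difference of at least 1. Over all probe sets 16513 were higher and 12945 lower. With 1 probe set per gene these were 8227 and 4921, and at a difference of at least 1 they were 231 and 2001. In addition, 10326 were higher with the dimmest left out and 8534 lower without x and s probe sets, where fewer were tested. When arrays were left out, 13259 to 15989 of all probe sets were higher. Glucose handling genes fell in 50 cases, in 33 after quantile normalization, and at a difference of at least 1 in 6, with 1 higher. With the replicate number as a block 17 transporter probe sets were higher and 9 lower. Same-numbered arrays had deviations that correlated at 0.015 to 0.026, too weakly to pair them, though each array correlated best with its own number. The cause of these changes was not tested beyond the smaller number of features where probe sets were left out. Detection above background was not assessed, which limits the dim probe sets most.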

Other observations

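SLC2A3 encodes GLUT3, a high-affinity transporter, and could not be read apart from SLC2A14, since 5 probe sets are annotated to both. The brightest of these, 11736555_s_at, read 7.58, 7.43 and 7.57 on the CSF3 arrays, against 7.56, 7.52 and 7.56 on the Ctrl arrays, and 11736556_s_at read 7.35, 7.29 and 7.31 on the CSF3 arrays, against 7.33, 7.22 and 7.27 on the Ctrl arrays. The groups overlapped on both. The other 3 were lower on every CSF3 array, by 0.47, 0.49 and 0.34 on the log2 scale, or by 0.22, 0.24 and 0.11 after quantile normalization. These probe sets were outside the fit and have no test, and the probe set that reads SLC2A14 alone was 0.88 higher on the CSF3 arrays.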
